A study of Oryza sativa Japonica Group with 6 samples.

Results

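OsSKIPa suppression was compared with the wild type in rice (Oryza sativa, Japonica Group) on 4 Affymetrix rice arrays of the 6 in the study. The suppression group consisted of 2 arrays (repeats 1 and 3) of the transgenic line S59R, whose seedlings had been selected on 50 mM G418. The wild type consisted of 2 arrays of untransformed control plants (1 and 2) that the protocol puts on no selection drug, so line and drug cannot be told apart. The design text gives 3 replicates of S59R and 3 of the wild type, of which 2 each were available here. The other 2 arrays, of an OsSKIPa overexpression line (S58S, selected on 50 mM hygromycin), entered the fit to share its estimate of the spread, and their signals are given for a few genes. All plants were moved to hydroponics as 10-day-old seedlings and were collected at 1 month. The labels speak of whole plants in the protocol and of shoots in the sample descriptions. Per the labels, the OsSKIPa level of the transgenic plants had been measured beforehand by real-time RT-PCR. No probe set carried the name OsSKIPa in the tables used here, so the gene itself was not analysed here and the labels were not checked against it. The labels number the suppression samples as biological repeats and say nothing of separate cultures for the controls, and p-values measure the spread between these samples, which may be technical. S59R is 1 line, and effects of that line and of the gene cannot be told apart.

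SKIP is a conserved nuclear protein that joins the spliceosome, the machine that removes introns from messenger RNA, and that also acts with transcription complexes. In plants it is known for roles in the circadian clock, flowering and tolerance of salt and drought. Rice was reported to carry SKIP genes that respond to stress. The arrays measured steady-state signal per probe set and not splicing.

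Of 57381 probe sets on the array, 57194 remained after leaving out 123 control and 64 reporter probe sets. Of these, 30315 were bright enough to test. A probe set was called when its adjusted p from limma (Benjamini-Hochberg over all tested probe sets) was under 0.05. With suppression, 284 probe sets were higher and 404 were lower than in the wild type, 2.27% of those tested (0.937% higher and 1.33% lower). The change was at least 2-fold for 128 rises and 190 falls (1.05% of the tested probe sets together) and at least 4-fold for 50 and 41. The median log2 fold change over all tested probe sets was -0.02. The 2 suppression values lay wholly above or below the 2 wild-type values for 48.8% of the tested probe sets, and for all 688 called ones. An unadjusted p under 0.05 was found for 5399 probe sets, 17.8% of those tested, where 1516 would be given by chance. Of the calls, 70 belonged to a gene with a name, 35 higher and 35 lower. Among the others, 177 higher and 256 lower probe sets carried a gene known only by a locus number, and 72 and 113 carried no gene.

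Arrays of the same group had a Pearson's r of 0.9707 for suppression and 0.9725 for the wild type across tested probe sets, and pairs of arrays across the groups lay between 0.9555 and 0.9589 (probe sets are not independent replicates). Calls depended on the model of the spread. Without the trend of variance on brightness, 1 probe set passed (LOC4331576), 160 had an adjusted p under 0.1, and 124 of the 688 calls were among these. Leaving out suppression replicate 1 gave 322 calls, and leaving out suppression replicate 3 gave 361. Leaving out wild-type replicate 1 gave 190, and leaving out wild-type replicate 2 gave 163. Of the 688 calls, 100 (40 higher and 60 lower) were kept whichever array was left out. Among these 100, 6 had a gene with a name (TIFY5, PP2C30, EIL1B, PHOT1A and both called probe sets of IVD), 68 a locus number only and 26 no gene; every other call on a named gene was lost in at least 1 of the 4 fits. Of the 688 calls, 329 were lost in all 4 fits. These include calls on ABA8OX2, PXG, LHY, SSI, SWEET14, OsUGE-3, CESA6, LAC7, CAD8C, BURP2, HSFC1B, HSP18.8, TGAL11, IRL5, GSTU6, ADF5, ADF7, mfs1 and OSL2. Fewer cells of a type and less RNA per cell cannot be told apart in these bulk samples.

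**Figure D1:**
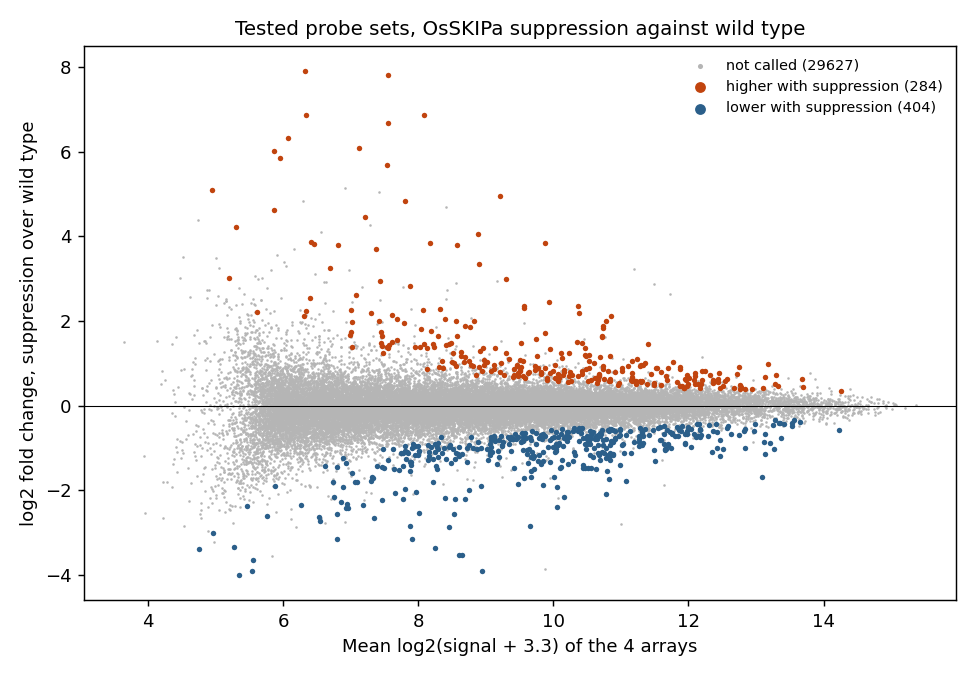
Each point is 1 of 30315 tested probe sets, with the mean log2(signal + 3.3) of the 4 arrays on the x axis and the log2 fold change, suppression over wild type, on the y axis. The 284 called rises (red) reach a log2 fold change of 7.90, the 404 called falls (blue) reach -4.0, and most uncalled probe sets (grey) lie near 0.

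Markers of root and shoot were present in both groups. The silicon transporter gene NIP2-1, which marks roots, had a signal of 7278.2 and 5456.7 with suppression, against 7418.7 and 4743.7 in the wild type. The summed signal of 8 root-preferred markers was 11835.5 and 7974.9 with suppression, against 10518.4 and 6695.7 in the wild type, and all 8 were tested with 0 calls by limma (2 with an unadjusted p under 0.05). The first array of each group was the higher one, the groups overlapped, and NIP2-1 gave most of the sum. One by one, 7 of the 8 had a positive log2 fold change and IRT1 a negative one, with a median of 0.28, the highest of the 46 lists with at least 5 tested genes. For 6 green shoot markers the sum was 86270.5 and 78960.2 with suppression, against 84892.2 and 89689.0 in the wild type, with 0 calls among 5 tested (3 with an unadjusted p under 0.05). Of these 5, 4 had a negative log2 fold change and 1 a positive one, with a median of -0.29. The part of these marker shifts in the results was not tested. For 3 senescent leaf markers the sum was 4957.3 and 5572.1, against 5322.2 and 5253.9 in the wild type, and 1 of them, OSL2, fell. OSL2, a senescence-associated gene, had 1543.4 and 1488.9 with suppression, against 2218.3 and 2221.9 in the wild type (-0.55 ± 0.09 on the log2 scale, SE; adjusted p = 0.0284). The 3′ over 5′ ratio of the GAPDH control, a sign of RNA integrity, was 1.66 and 1.90 with suppression, against 1.87 and 1.81 in the wild type. For the actin control the 3′ over 5′ ratio was 6.49 and 6.25 with suppression, against 4.83 and 7.14 in the wild type. The GAPDH and actin control signals in these ratios were higher in both suppression arrays than in both wild-type arrays. The middle actin control had 8311.3 and 8272.2 with suppression, against 6303.3 and 7189.0 in the wild type. A 5′ ubiquitin control overlapped, at 25606.7 and 23618.0, against 24428.1 and 24277.7. These signals were not tested. One 18S rRNA control had 3673.9 and 3885.3 with suppression, against 4949.6 and 5132.3 in the wild type; its part in the results was not tested.

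Type 2C protein phosphatases (PP2Cs) remove phosphate from proteins, and those of clade A hold back abscisic acid signalling. Abscisic acid is the hormone of drought and salt stress; its receptors bind clade A phosphatases and so release SnRK2 kinases, known as SAPKs in rice, which activate bZIP factors and the genes of dehydrins and other protective proteins. Clade A genes are themselves known to be induced by abscisic acid.

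Among 52 tested PP2C genes of 55 on the array, 5 rose with suppression and 0 fell. Counted with 1 probe set per gene, 9.62% of the PP2C genes were called, against 2.74% of all 16091 tested genes (1.23% higher and 1.51% lower). All 5 belonged to clade A, whose members were listed after the calls had been seen, so that the split is a description. Of 6 tested clade A genes, 5 rose with a median log2 fold change of 1.26, while 0 of the other 46 passed in the limma fit, with a median of 0.05 and values between -0.52 and 0.77. Over the whole family, 16 genes had an unadjusted p under 0.05, which was the case for 19.9% of all tested genes.

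PP2C30 had a signal of 1479.5 and 1932.0 with suppression, against 461.9 and 247.9 in the wild type. This is a log2 fold change of 2.31 ± 0.27 (SE, n = 2 arrays each; limma adjusted p = 0.00652), or 4.96-fold, and it was called whichever array was left out (1.86 to 2.75). Both suppression arrays lay far above both wild-type arrays. OsPP2C08 had 984.5 and 814.5, against 387.4 and 309.6 in the wild type (1.36 ± 0.18, adjusted p = 0.0089). PP2C06, also listed as OsABIL1, had 3309.8 and 2251.1, against 1220.8 and 1211.8 in the wild type (1.16 ± 0.17, adjusted p = 0.0143). The wild-type arrays of PP2C06 nearly coincided, and the suppression arrays were spread but both higher.

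PP2C68 had 309.1 and 288.6 with suppression, against 118.2 and 109.6 in the wild type (1.37 ± 0.22, adjusted p = 0.0205). OsPP2C09 had 871.2 and 969.6, against 589.5 and 432.0 in the wild type (0.86 ± 0.17, adjusted p = 0.0475), and its call, like that of PP2C68, was lost whichever array was left out. PP2C53, the tested clade A gene without a call, had 782.0 and 789.2, against 674.7 and 801.7 in the wild type (0.09 ± 0.13, adjusted p = 0.766), and its groups overlapped. PP2C51 was too dim to test, at 49.2 and 41.0 with suppression, against 77.5 and 2.3 in the wild type. In the overexpression line, PP2C30 had 374.5 and 332.8, PP2C06 1276.5 and 1268.8, and PP2C68 124.9 and 121.7, all below the suppression arrays. OsPP2C08 had 572.4 and 479.0 there and OsPP2C09 482.1 and 448.6, below the suppression arrays too. Those of OsPP2C08 lay above both wild-type arrays (0.59 on the log2 scale, limma adjusted p = 0.613), as did, by less, those of PP2C06 and PP2C68.

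**Figure D2:**
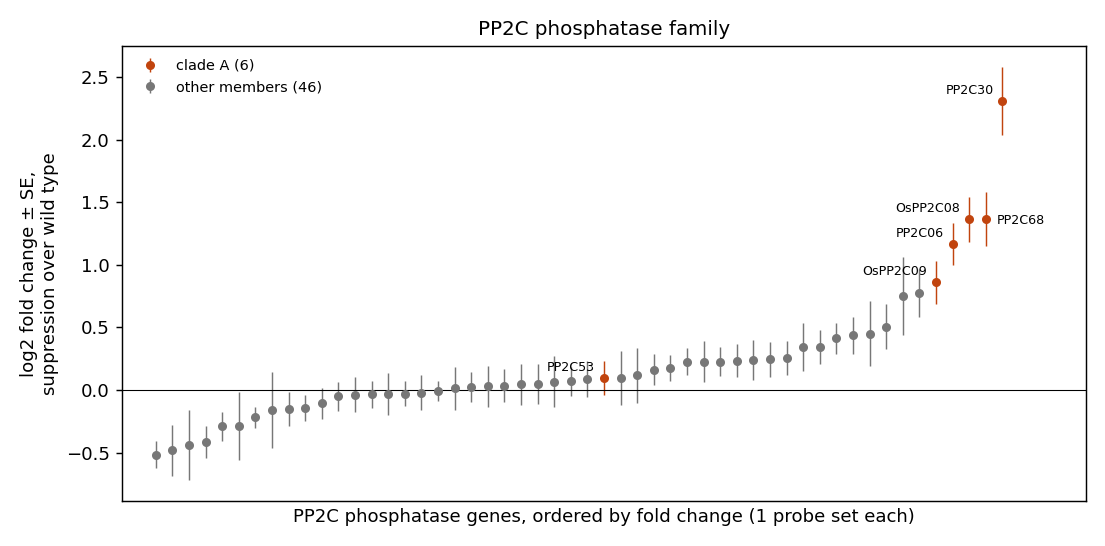
Each point is 1 of 52 tested PP2C genes (1 probe set each), ordered along the x axis by the log2 fold change of suppression over wild type on the y axis, with bars of 1 SE from limma. Of the 6 clade A genes (red), 5 hold the highest places, from 0.86 (OsPP2C09) to 2.31 (PP2C30), and PP2C53 lies near 0 among the 46 others (grey).

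Other genes of abscisic acid signalling were not called in the list of receptors, kinases and ABF-type factors. Of 13 tested genes for receptors, SAPK kinases and ABF-type bZIP factors, 0 passed in the limma fit, with a median log2 fold change of 0.14. Of the 13, 9 had a positive and 4 a negative log2 fold change. An unadjusted p under 0.05 was found for 7, and for 19.9% of all tested genes. SAPK7 had the smallest p, with 2034.1 and 1869.3 with suppression, against 1333.4 and 1425.5 in the wild type (0.50 ± 0.11, adjusted p = 0.0571). RCAR5, a receptor gene, had 4018.4 and 3719.0, against 3734.6 and 3707.9 in the wild type (0.05, adjusted p = 0.80). ABA8OX2, which encodes a hydroxylase that breaks abscisic acid down, rose, with 1422.1 and 1475.5 with suppression, against 696.9 and 803.7 in the wild type (0.95 ± 0.14, adjusted p = 0.0155). Of 6 dehydrin and LEA genes, 0 passed by limma (3 with an unadjusted p under 0.05). RAB16C had 298.6 and 519.1, against 176.1 and 164.8 in the wild type (1.19 ± 0.34, adjusted p = 0.123), and LIP9 had 4087.0 and 4071.2, against 3677.9 and 3121.9 (0.27, adjusted p = 0.259).

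Ethylene signalling ends in EIN3-like (EIL) transcription factors. EIL1B rose, with 3601.3 and 3373.0 with suppression, against 1098.0 and 696.6 in the wild type (1.99 ± 0.19, adjusted p = 0.0035). The fold change lay between 1.66 and 2.32 with 1 array left out, and every such fit called it. It was the called member among 9 tested ethylene genes (11.1%, against 2.74% of all tested genes), 3 of which had an unadjusted p under 0.05.

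The TIFY family includes the JAZ repressors of jasmonate signalling. TIFY5 had a signal of 1205.0 and 1275.4 with suppression, against 1.8 and 2.0 in the wild type, so that it was near the floor of the arrays in the wild type and clearly measured in the transgenic line. With the wild-type values set to their array medians, it was at least 18.9-fold higher (log2 fold change 7.90 ± 0.32, adjusted p = 0.000182). The overexpression line was high as well, at 1634.3 and 792.5, so this rise was present in both transgenic lines. PXG, a peroxygenase gene counted with the jasmonate list, had 302.6 and 246.0 with suppression, against 126.7 and 100.4 in the wild type (1.25 ± 0.25, adjusted p = 0.0477). The other 31 of 33 tested genes in that list were not called (6.06% called, against 2.74% of all tested genes), and the list's median was -0.16.

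**Figure D3:**
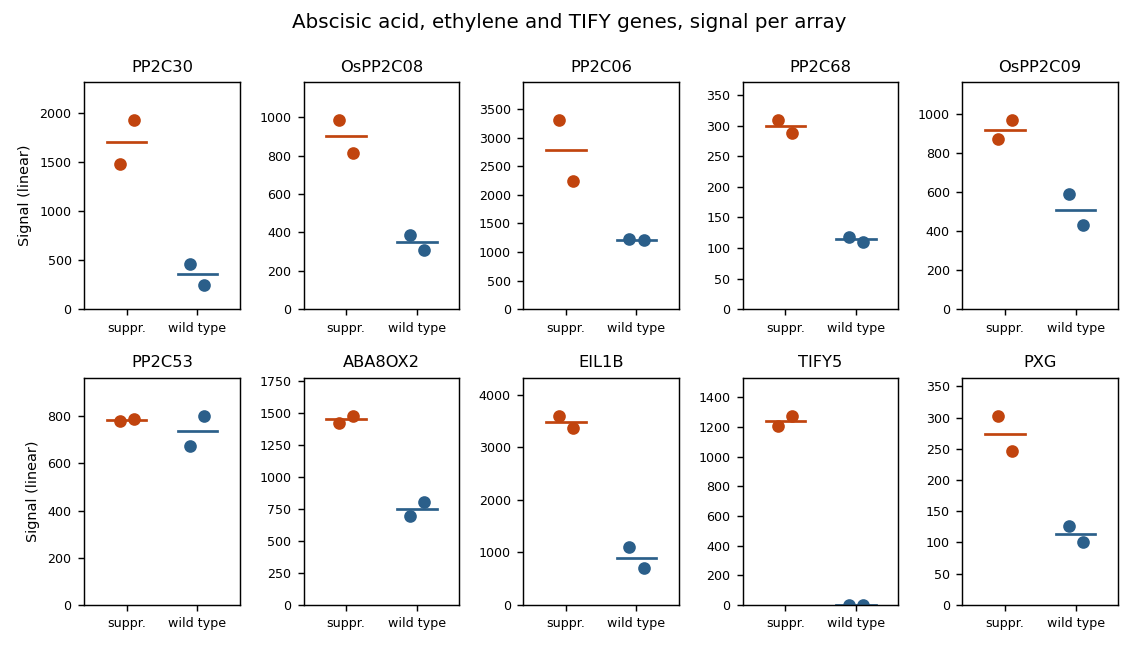
Linear signal of 10 genes in each array, with suppression (red) left of the wild type (blue) and a bar at the mean of the 2 arrays; each panel has its own axis from 0. PP2C53 has overlapping groups, and in the other 9 panels both suppression arrays lie above both wild-type arrays.

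In the lists of light perception, clock and chlorophyll genes, 1 of 5, 2 of 13 and 1 of 15 tested genes were called, against 2.74% of all genes; PHOT1A, LHY and CAO fell and PCL1 rose. PHOT1A, which encodes a phototropin, the blue-light receptor of phototropism and chloroplast movement, had 1367.7 and 1494.7 with suppression, against 3009.2 and 3175.4 in the wild type. It fell by 1.11 ± 0.10 on the log2 scale (adjusted p = 0.00229), and the call was kept whichever array was left out. A probe set of the red-light receptor gene PHYA fell too, with 525.5 and 500, against 841.5 and 924.7 in the wild type (-0.78 ± 0.13, adjusted p = 0.0228); PHYA was picked after its values were seen, and its other probe set read -0.40 (adjusted p = 0.205). With 1 probe set per gene, PHOT1A was the 1 call among 5 tested genes of light perception.

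LHY, a morning gene of the circadian clock, had 1941.8 and 1886.3 with suppression, against 3339.4 and 2955.5 in the wild type (-0.71 ± 0.11, adjusted p = 0.016). PCL1, an evening gene of the clock, rose, with 3602.2 and 4474.3, against 1941.3 and 2430.5 in the wild type (0.89 ± 0.15, adjusted p = 0.0262). The other 11 of 13 tested clock and flowering genes were not called (4 of the 13 were under 0.05 unadjusted), and the list's median was -0.07. The sources used here do not give the time of day of harvest.

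CAO, chlorophyllide a oxygenase, which makes chlorophyll b, fell, with 1672.5 and 1295.0 with suppression, against 2319.1 and 2721.4 in the wild type (-0.77 ± 0.15, adjusted p = 0.0442). It was the 1 call among 15 tested genes of chlorophyll synthesis and its GLK regulators, and the green shoot markers had their median of -0.29 beside it. GLK1, a regulator of chloroplast development, had 756.4 and 703.1, against 1174.2 and 1798.8 in the wild type (-0.99 ± 0.21, adjusted p = 0.0568). The probe sets of GLK2 disagreed. A dim one fell, at 55.0 and 58.3 with suppression, against 161.7 and 152.0 in the wild type (at least 2.55-fold lower, adjusted p = 0.0411), while the one used in the lists had 2902.7 and 2445.2, against 3351.8 and 3501.1 (-0.36, adjusted p = 0.141), and another read 0.24. Genes of the light-harvesting complexes and photosystems gave 0 limma calls among 5 tested (2 with an unadjusted p under 0.05). Of the 5, 4 had a negative log2 fold change and 1 a positive one, with a median of -0.28. The smallest p was that of rca, with 19658.0 and 17956.7 with suppression, against 23276.1 and 22529.9 in the wild type (-0.29 ± 0.07, adjusted p = 0.0987). Its other probe sets read between -0.44 and -0.37 and were not called. CAB2R had 31946.3 and 30317.5, against 29743.8 and 32788.1 in the wild type (-0.01, adjusted p = 0.98), and its groups overlapped.

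In nitrogen metabolism, GLT2, which encodes an NADH-dependent glutamate synthase, had 1398.2 and 1104.9 with suppression, against 3234.7 and 3379.1 in the wild type. It fell by 1.41 ± 0.18 on the log2 scale (adjusted p = 0.00837). The ammonium transporter gene AMT3-3 rose, with 418.5 and 578.4, against 139.7 and 135.8 in the wild type (1.81 ± 0.26, adjusted p = 0.0143). These were the calls among the 20 tested nitrogen genes with 1 probe set each (10%, against 2.74% of all tested genes). An unadjusted p under 0.05 was found for 6 of the 20, and for 19.9% of all tested genes. Genes that release nitrogen from ureides, AAH and OsUAH, both fell; they were picked after their values were seen. AAH, allantoate amidohydrolase, had 571.8 and 612.2, against 896.6 and 963.9 in the wild type (-0.65 ± 0.12, adjusted p = 0.0374). OsUAH, ureidoglycolate amidohydrolase, had 1903.1 and 2202.1, against 3287.4 and 2998.0 (-0.62 ± 0.11, adjusted p = 0.0353). IVD, isovaleryl-CoA dehydrogenase of leucine breakdown, fell in both of its called probe sets. The stronger had 1083.7 and 1097.1 with suppression, against 2370.3 and 2519.5 in the wild type (-1.16 ± 0.10, adjusted p = 0.00201), the other read -0.93 (adjusted p = 0.00499), and both were kept whichever array was left out.

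Among other transporters, the potassium transporter gene HAK27 rose, with 548.1 and 521.9 with suppression, against 201.4 and 120.7 in the wild type (1.76 ± 0.25, adjusted p = 0.014). It was the 1 call among 23 potassium and sodium transport genes (4.35%, against 2.74% of all tested genes). In the phosphate and sulphate list, which holds genes of assimilation as well as transporters, SAT1 was the 1 call among 20 tested and fell, with 279.9 and 394.7, against 761.1 and 883.3 in the wild type (-1.29 ± 0.18, adjusted p = 0.0131). Iron and metal genes gave 0 limma calls among 43 tested (10 with an unadjusted p under 0.05), and aquaporin genes 0 among 20 (4). TIP1-2, an aquaporin of the vacuole membrane, had 2823.1 and 1823.5, against 1224.4 and 543.9 in the wild type (1.47 ± 0.35, adjusted p = 0.0741).

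Sugar and starch genes moved in both directions, with 2 higher and 2 lower among 28 tested (14.3%, against 2.74% of all tested genes). An unadjusted p under 0.05 was found for 6 of the 28, and for 19.9% of all tested genes. The starch synthase gene SSI had 931.8 and 920.7 with suppression, against 579.2 and 519.1 in the wild type (0.75 ± 0.13, adjusted p = 0.0302). The starch branching enzyme gene Sbe1 had 7015.7 and 6060.3, against 4593.9 and 4016.3 in the wild type (0.60 ± 0.11, adjusted p = 0.0339), and a second probe set read 0.59 and was called as well. The sucrose synthase gene SUS4 fell, with 940.4 and 1247.5, against 1821.5 and 2279.4 in the wild type (-0.91 ± 0.16, adjusted p = 0.0308). The sugar exporter gene SWEET14 fell, with 157.4 and 194.6, against 333.8 and 353.1 in the wild type (-0.96 ± 0.19, adjusted p = 0.0428). OsUGE-3, a UDP-glucose epimerase gene, fell too (243.4 and 265.1, against 515.9 and 462.0 in the wild type, -0.93 ± 0.19, adjusted p = 0.0457). For each gene of this paragraph, the 2 suppression arrays lay on one side of both wild-type arrays. This held for all 688 called probe sets and for 48.8% of the tested ones, so it adds nothing to the calls.

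In the cell wall lists, the cellulose synthase genes CESA1 and CESA6, which are known to build the primary wall, both rose. CESA1 had 11300.9 and 12548.9 with suppression, against 8399.7 and 8388.1 in the wild type (0.50 ± 0.08, adjusted p = 0.0232). CESA6 had 6359.2 and 7013.9, against 4445.3 and 4421.5 in the wild type (0.59 ± 0.11, adjusted p = 0.0341). A second probe set of CESA1 had 684.0 and 333.4, against 536.9 and 526.3 (-0.15, adjusted p = 0.846), and its groups overlapped. Among 37 tested cellulose synthase and CSL genes, 2 rose and 0 fell (5.41%, against 2.74% of all tested genes). An unadjusted p under 0.05 was found for 16 of the 37, and for 19.9% of all tested genes. The median was 0.26, against 0.01 over all genes with 1 probe set each. Beside this list, 18S control signal was lower in both suppression arrays (values above), and its part was not tested.

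OsUAM1, a UDP-arabinopyranose mutase gene of wall polysaccharide synthesis that was picked after its values were seen, rose, with 13498.5 and 12292.0, against 7618.3 and 7942.3 in the wild type (0.73 ± 0.08, adjusted p = 0.00484). In the phenylpropanoid and lignin list, CAD3 of the cinnamyl alcohol dehydrogenase family rose, with 4465.9 and 4577.0 with suppression, against 2527.1 and 2367.6 in the wild type (0.89 ± 0.10, adjusted p = 0.00563). The laccase gene LAC7 fell, with 3040.6 and 2926.1, against 6155.8 and 5670.5 in the wild type (-0.99 ± 0.15, adjusted p = 0.0174). CAD8C fell (-0.49 ± 0.10, adjusted p = 0.0423), and the other 21 of 24 tested genes were not called (12.5% called, against 2.74% of all tested genes). BURP2, of a plant-specific wall protein family, rose (0.93 ± 0.16, adjusted p = 0.0301), and the germin-like gene GER3 fell (-1.09 ± 0.20, adjusted p = 0.0353). Expansin and XTH genes, which loosen the wall, gave 0 limma calls among 24 tested (6 with an unadjusted p under 0.05), with a median of -0.21.

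**Figure D4:**
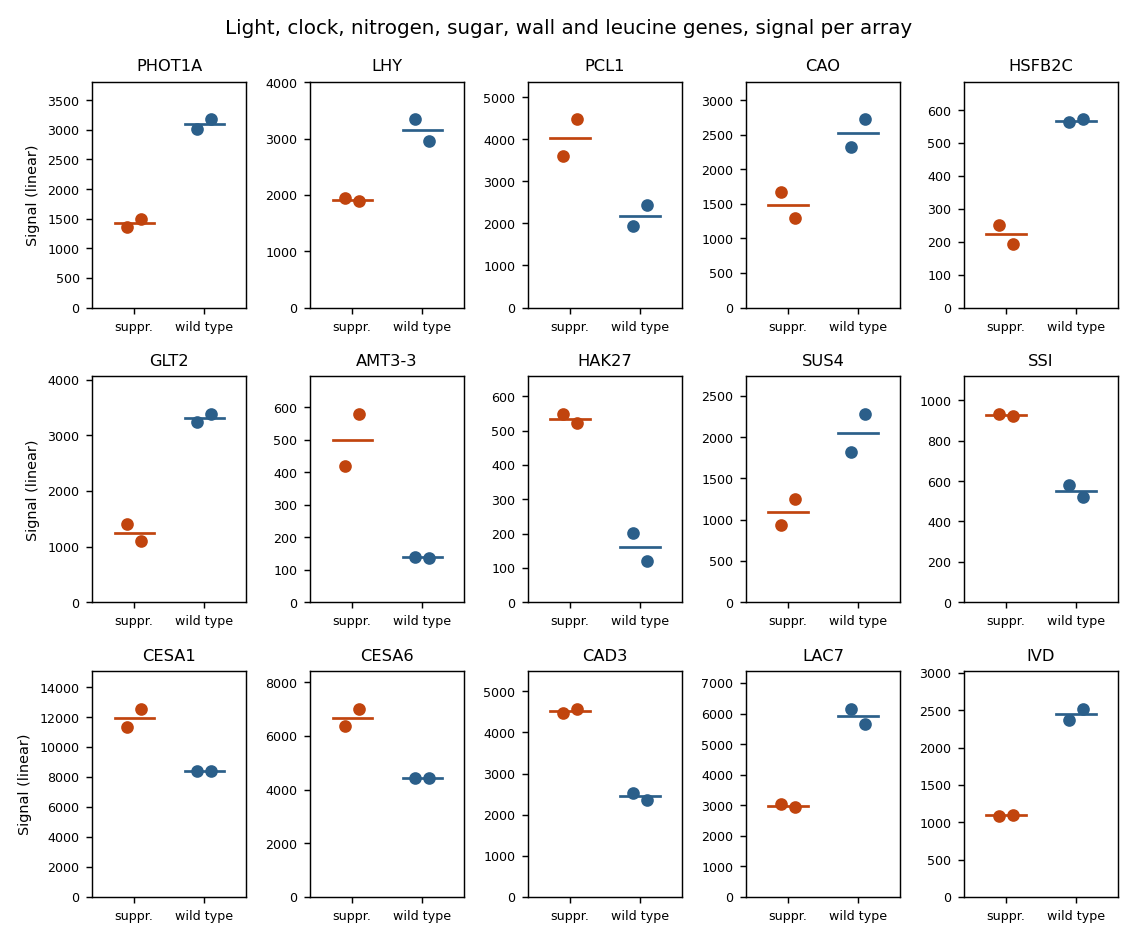
Linear signal of 15 genes in each array, with suppression (red) left of the wild type (blue) and a bar at the mean of the 2 arrays; each panel has its own axis from 0. PHOT1A, LHY, CAO, HSFB2C, GLT2, SUS4, LAC7 and IVD are lower with suppression, the other 7 genes are higher, and the groups overlap in none of the panels.

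Heat stress factors are transcription factors that switch on chaperone genes, with class A members as activators and class B members mostly as repressors. HSFB2C fell, with 252.0 and 193.4 with suppression, against 563.2 and 571.4 in the wild type (-1.35 ± 0.20, adjusted p = 0.0146). The overexpression arrays of this probe set had 352.6 and 278.6, also below both wild-type arrays. Other probe sets of HSFB2C read -0.51 and -0.63 and were not called. HSFC1B rose, with 1154.6 and 1099.7, against 581.1 and 680.2 in the wild type (0.84 ± 0.15, adjusted p = 0.0346). With 1 probe set per gene, 1 rise and 1 fall were called among 19 tested heat stress factor genes (10.5%, against 2.74% of all tested genes). The probe sets listed for HSFA2D disagreed. One fell, at 363.3 and 269.7, against 591.4 and 676.1 in the wild type (-1.01 ± 0.18, adjusted p = 0.0336). Its overexpression arrays, at 480.6 and 438.8, were also below both wild-type arrays. The probe set used in the lists had 4316.1 and 3777.0, against 3883.1 and 3608.8 (0.11, adjusted p = 0.679). This gene is also listed under the name ARD2, and which product each probe set measures was not tested. Of 20 heat shock protein genes, 1 fell, the small heat shock protein gene HSP18.8 (-0.87 ± 0.15, adjusted p = 0.0317).

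Further transcription factors and signalling genes changed singly. With 1 probe set per gene, 2 of 20 tested bZIP and TGA genes were called, 1 of 43 C3H and CCCH zinc finger genes and 1 of 23 calmodulin genes. The count was 1 of 45 for CIPK, CBL and CPK genes, 1 of 60 for cell cycle genes and 1 of 56 for redox genes. Among actin, tubulin and other reference genes it was 2 of 35. Beside these counts, 2.74% of all tested genes were called. In the reference list, 27 genes had a positive log2 fold change and 8 a negative one, with a median of 0.15. There, 13 had an unadjusted p under 0.05, which was the case for 19.9% of all tested genes. The bZIP genes TGAL11 and BZIP52 fell. TGAL11 had 62.1 and 66.8 with suppression, against 211.8 and 153.4 in the wild type (-1.44 ± 0.27, adjusted p = 0.0384). BZIP52 had 283.6 and 227.6, against 620.7 and 542.1 in the wild type (-1.18 ± 0.17, adjusted p = 0.0143). The zinc finger gene OsC3H37 fell (-0.78 ± 0.13, adjusted p = 0.0232), as did the calmodulin-like gene CML29 (-0.70 ± 0.10, adjusted p = 0.014), the kinase gene CDKF;1, whose family activates cyclin-dependent kinases (-0.78 ± 0.11, adjusted p = 0.0113), and the leucine-rich repeat gene IRL5 (-0.94, adjusted p = 0.0287). CIPK2, a kinase gene of the calcium sensor network, rose in both called probe sets, one with 5516.5 and 5864.9, against 3499.5 and 3182.1 in the wild type (0.77 ± 0.10, adjusted p = 0.00752), and the other by 0.91. Another probe set of CIPK2 went the other way without a call, at 24.6 and 5.3, against 85.3 and 38.7 in the wild type (-1.98 ± 0.77, adjusted p = 0.233). The glutathione transferase gene GSTU6 rose (0.61 ± 0.09, adjusted p = 0.0146). The actin-depolymerizing factor genes ADF5 and ADF7 rose by 0.43 and 0.42 (adjusted p = 0.0459 and 0.0477). mfs1 rose, with 2867.2 and 2130.7, against 1109.1 and 1109.3 in the wild type (1.15 ± 0.22, adjusted p = 0.0384).

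Across 48 gene lists, 1005 distinct genes were tested, of which 23 rose and 18 fell (4.08%, against 2.74% of all genes with 1 probe set each). The lists had been chosen with results of these data known, so this share is a description. In all, 24 lists with 414 tested members held 0 calls by limma. They include auxin (0 of 55, 3 with an unadjusted p under 0.05), cytokinin (0 of 29, 12), gibberellin and brassinosteroid (0 of 20, 6), HOX and KNOX factors (0 of 40, 7) and ribosomal proteins (0 of 24, 2). In the cytokinin list, LOGL7, an enzyme that activates cytokinin, had 910.3 and 930.7 with suppression, against 1287.5 and 1368.2 in the wild type (-0.53 ± 0.11, adjusted p = 0.0501), just outside the threshold, and a second probe set read 0.38 (adjusted p = 0.71). The gibberellin synthesis gene KAO had 199.5 and 219.9, against 357.2 and 402.0 in the wild type (-0.85 ± 0.18, adjusted p = 0.058).

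Genes of the splicing machinery gave 0 limma calls among 9 tested (2 with an unadjusted p under 0.05), with a median of 0.04. RSZ21A, a serine- and arginine-rich splicing factor gene, had 1540.5 and 1684.0 with suppression, against 1081.7 and 1192.3 in the wild type (0.50 ± 0.11, adjusted p = 0.0682). SC34 had 11394.5 and 11058.2, against 10682.8 and 11222.7 (0.04, adjusted p = 0.847), and its groups overlapped. Genes of small RNA pathways (0 of 17, with 0 at an unadjusted p under 0.05) and of histones and chromatin (0 of 13, 1) gave no call either. Genes whose symbol did not match are absent from these lists.

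**Figure D5:**
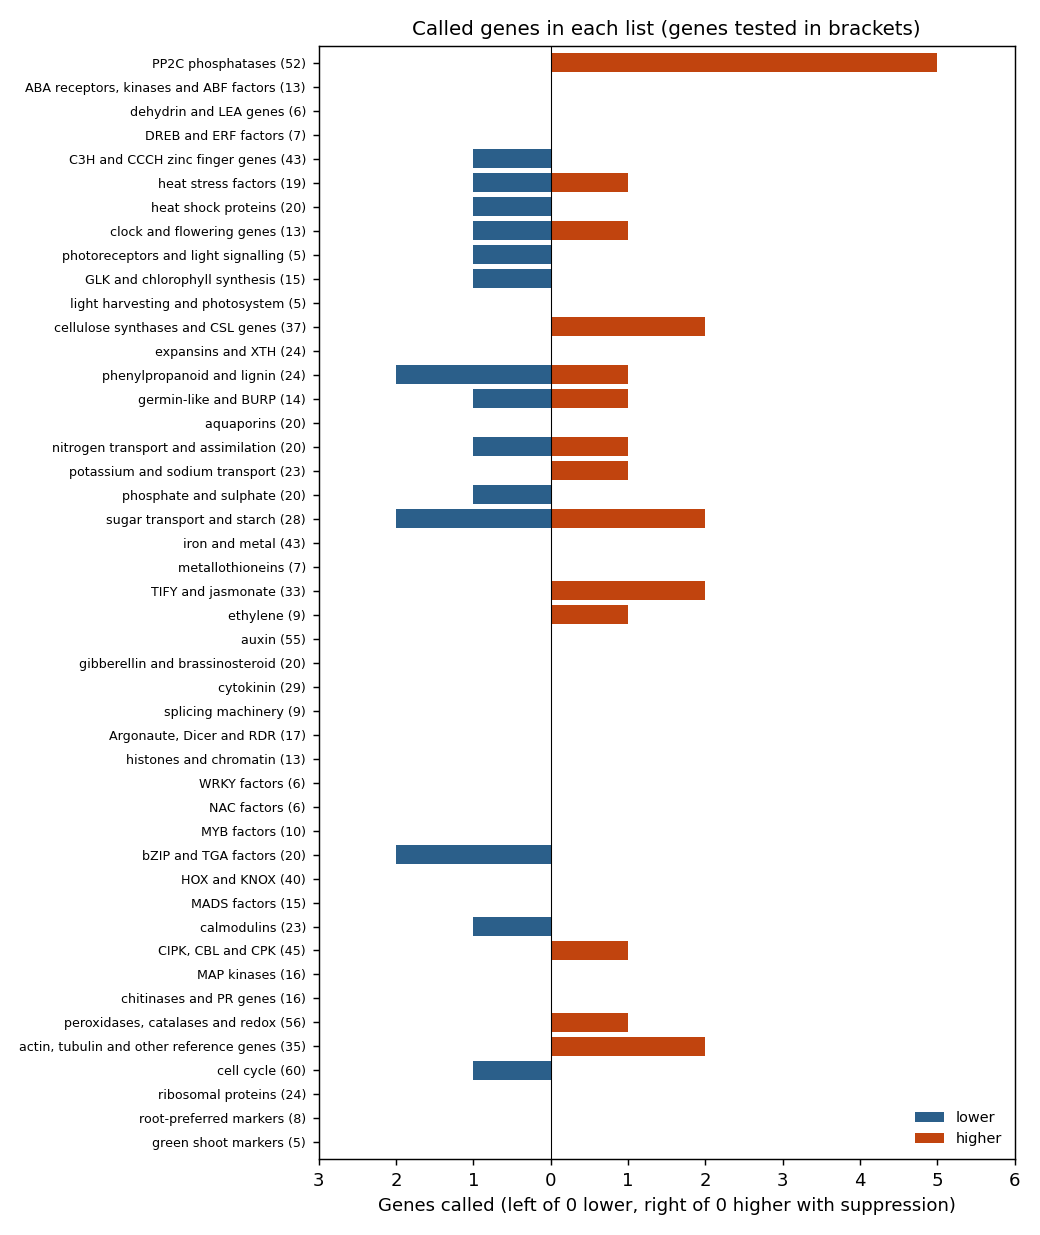
Number of called genes (x axis) in each of 46 lists with at least 5 tested genes (y axis, number tested in brackets), lower with suppression to the left of 0 and higher to the right. PP2C phosphatases have the longest bar, with 5 higher and 0 lower, and no list has more than 2 lower.

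Large differences were also seen for genes that the tables used name only by locus number, and their functions are not given there. LOC4331398 had 2381.6 and 3306.5 with suppression, against 2.1 and 25.6 in the wild type, at least 42.6-fold higher (adjusted p = 0.00426). Its second probe set had 2465.5 and 3503.4, against 43.7 and 10.2 in the wild type (at least 44.6-fold higher, adjusted p = 0.00819). LOC4342551 had 3070.7 and 3548.9, against 125.4 and 85.9 in the wild type (4.95 ± 0.51, adjusted p = 0.00411). The overexpression arrays were low for both genes, at 16.9 and 73.7 for the first probe set of LOC4331398 and at 123.0 and 31.3 for LOC4342551.

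A probe set of LOC4340325 was raised in both transgenic lines, with 1834.2 and 1966.3 with suppression and 2021.3 and 2304.7 with overexpression, against 7.1 and 30.0 in the wild type (at least 28.9-fold for suppression, adjusted p = 0.000916). The other probe set of LOC4340325 had 180.8 and 228.0 with suppression, against 157.1 and 174.7 in the wild type (0.29 ± 0.22, adjusted p = 0.554), and was not called. LOC4331576 had 438.2 and 492.8 with suppression and 124.7 and 152.4 with overexpression, against 4.8 and 3.1 in the wild type (at least 7.10-fold for suppression, adjusted p = 0.000654). LOC9268308 had 3672.5 and 356.4, against 19.9 and 9.2 in the wild type (at least 17.4-fold, adjusted p = 0.0166), so the suppression arrays themselves differed widely. Its other probe set, too dim in most arrays to test, had 1633.6 and 11.7, against 8.0 and 4.0 in the wild type. For the tested probe set, 1 of the 4 fits with an array left out kept its call.

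On the lower side, LOC4324556 had 126.2 and 97.7 with suppression, against 1272.3 and 1352.0 in the wild type (-3.52 ± 0.18, adjusted p = 0.000361). LOC4327002 had 106.8 and 125.3, against 1623.5 and 1138.0 in the wild type (-3.52 ± 0.19, adjusted p = 0.000368). LOC4324430 had 71.6 and 82.8, against 806.5 and 632.7 in the wild type (-3.16 ± 0.30, adjusted p = 0.00342). Each of these falls was kept whichever array was left out, and the groups were far apart. LOC4326332 had 26.3 and 43.8, against 329.1 and 322.3 in the wild type (at least 5.24-fold lower, adjusted p = 0.00265). LOC4341009 had 14.3 and 2.6, against 183.2 and 139.5 in the wild type (at least 2.60-fold lower, adjusted p = 0.0269).

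Of 16079 pairs of neighbouring tested genes, 19 had both genes called, 12 in the same direction and 7 in opposite ones. A gene was counted here as called where any of its probe sets was, which held for 466 of 16091 tested genes. How many such pairs would arise by chance was not tested. Gene order was taken from assembly ASM3414082v1. LOC4341380 and LOC4341383 on chromosome 6 rose together, by 3.84 and 4.05 on the log2 scale, with 2 untested genes between them. HSFB2C and OsUGE-3 on chromosome 9 were direct neighbours and both fell. By chromosome, with a gene counted as called where any of its probe sets was, the called share lay between 2.32% on chromosome 12 and 4.19% on chromosome 4 (59 of 1407 tested genes).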

How the data were processed

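Per the labels' protocols, biotinylated cRNA was made from 6 µg of TRIzol-extracted total RNA. The authors deposited 1 linear signal intensity per probe set and array. Which software summarised the probes is not given in the labels. The mean of the middle values, with 2% trimmed off both ends, was 500.06 in every array, so the deposited intensity of all arrays was already on one scale, and array medians lay between 58.7 and 66.2. The number of arrays limits the precision.

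Values were tested as log2(value + 3.3), 3.3 being the 10th percentile, which understates changes of dim probe sets. At least 2 of 6 arrays had to exceed their own median. limma 3.58.1 in R 4.3.3 was fitted to 3 groups (3 residual and 5.2 prior degrees of freedom; eBayes with trend; two-sided). Where both arrays of the dimmer group lay below the array median, they were raised to it and the fold is given as "at least". The platform's probe table gave 22436 probe sets 1 gene and 95 several, and did not list 34663; names came from it and assembly ASM3414082v1.

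Lists used the brightest probe set of a gene. The rule named the 15 largest rises and falls among named genes, the 5 largest among loci, called list members (up to 6 a list), fixed genes, and the smallest p and brightest member of lists with no call. The members and lists were chosen with earlier results of these data known. Alternatives were other pseudocounts, filters, normalization, eBayes without trend, the 4 arrays alone, and leaving out each array.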

Additional observations from a re-analysis of the deposited data

Results flagged for a closer look

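Of 64 reporter probe sets, which match inserted sequences and were left out of the comparison, 4 were above the array median in both suppression arrays and over 3 times every wild-type array. Their means with suppression were 1699.8, 641.6, 227.2 and 77.3. The first had 1670.6 and 1729.1 with suppression, against 2.9 and 11.2 in the wild type; the second 705.9 and 577.4, against 47.9 and 55.0; the third 247.4 and 207.1, against 5.1 and 5.8; and the fourth 92.6 and 62.0, against 8.3 and 13.4. In the overexpression line the fourth had 60.3 and 86.9, below the array median in the first array and above it in the second. No test was run on them.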

How the results depend on the processing

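The count of 688 calls (284 higher, 404 lower) stayed within 1.5 times under a pseudocount of 1 or 16, a filter of at least 4 of 6 arrays, quantile normalization and the 4 arrays alone. The members changed more than the count. Of the 688, 495 were among the 583 called with the 4 arrays alone, and 649 were called under quantile normalization. Without a filter, which tests 57194 probe sets, 423 passed (164 higher, 259 lower), with 37 of 58 named probe sets and 26 of 41 list genes. With eBayes without the trend, 1 passed by limma (1 higher, 0 lower; 4653 at an unadjusted p under 0.05), which was 1 of the named probe sets, and 0 list genes. With 1 array left out, 163 to 361 passed (60 to 124 higher, 91 to 237 lower), with 13 to 28 named probe sets and 10 to 21 list genes; the lone array of a group was assumed to vary like the others. None of the 688 calls changed sign under these alternatives. The groups overlapped for none of these calls, so leaving out an array could not have turned a sign. Among uncalled probe sets, one of CESA1 lay between -0.67 and 0.36 and one of HSFB2C between -1.75 and 0.48 with 1 array left out. Both were above 0 without suppression replicate 3, and the cause was not tested. No paired analysis was possible because the suppression and wild-type arrays share only 1 repeat number. Signals near the array median limit what can be measured.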
